A study of Homo sapiens with 4 samples.

Results

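The core spliceosome genes were rows of the deposited gene table chosen by symbol. The symbols name Sm and other snRNP proteins (SNRP and SNRNP), LSm proteins (LSM), pre-mRNA processing factors (PRPF) or SF3A and SF3B subunits. Symbols of 15 further splicing factors were listed by name. Of the 10147 genes in the table, 64 had such a symbol, and all 64 passed the minimum of 10 reads that left 10005 genes for testing. SNRPB, SF3B3, PRPF39 and CDC5L were not analysed here. The genes were chosen by name and not by their values, though with earlier results of these data known. They were sorted by role into the Sm ring, the U1 snRNP, the U2 snRNP with the 3′ splice site factors, the U4/U6.U5 tri-snRNP with the activation factors, the U6 LSm ring, the PRPF19 complex with the factors of the catalytic steps, the minor U11/U12 snRNP, and LSm proteins that work outside the spliceosome.

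The measurement was TT-seq, in which a short pulse of 4-thiouridine (4sU) marks RNA while it is being made and the marked RNA is isolated and sequenced, so that reads follow RNA synthesis rather than RNA level. All cells were K562, a human chronic myelogenous leukemia line, edited to carry a degradation tag (dTAG) at the N-terminus of IWS1, a partner of elongating RNA polymerase II. The control was given DMSO, and dIWS1 cells were given 500 nM dTAG7, the ligand that sends the tagged protein to the proteasome; the treatment lasted 1 h in both groups and the pulse was 5 min of 4sU at 500 µM. The labels name 2 control and 2 dIWS1 libraries, and controls carry the tag as well.

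Reads per library were read back from the deposited mean of normalized reads, which splits into whole multiples of a fixed step for each library. This gave 3 distinct columns rather than 4. The control column enters the mean 2 times, so the control counts as 1 sample and no spread between controls is known. The 2 dIWS1 columns, called column 1 and column 2, differ from each other and carry no replicate number. Reads in genes came to 29588862 for the control and to 20512882 and 20727515 for dIWS1. Spike-in size factors, by which reads are divided, were 1.01, 0.993 and 0.919. Wherever 3 read numbers are given for a gene, they are unscaled and in this order, the control first and then dIWS1 columns 1 and 2. All log2 ratios are dIWS1 over control after this scaling, with the 2 dIWS1 columns against the 1 control column in a limma voom fit over all genes, so a p-value measures the result against the spread of the dIWS1 columns alone. IWS1 itself, whose protein and not whose RNA is degraded, had 3684 control reads against 2334 and 2427 in the dIWS1 columns, and a log2 ratio of -0.55 (SE 0.15). Of 12 erythroid and K562 marker genes, 9 were in the table, with 129 to 16164 control reads.

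The spliceosome removes introns from pre-mRNA. Its snRNPs are each built on a small nuclear RNA that carries a ring of Sm proteins, or of LSm proteins on U6. The U1 snRNP recognises the 5′ splice site, SF1 and the U2AF heterodimer bind the branch point and the 3′ splice site, and the U2 snRNP with SF3A and SF3B then pairs with the branch point. The tri-snRNP joins, PRPF8 and the helicase SNRNP200 carry the rearrangement, and the PRPF19 complex stabilises the catalytic centre. Every dividing cell makes these proteins in quantity.

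Relative to the spike-ins, synthesis of most core spliceosome genes was lower after 1 h of dTAG7, and so was that of most genes in the table. At an adjusted p under 0.05, 39 of the 64 genes fell (60.9%), beside 65% of all genes tested. None was called higher, beside 0.13% of all genes. At an unadjusted p under 0.05 limma voom had 43 genes lower and 0 higher, beside 6928 and 18 of the 10005 genes tested. With limma-trend, a second fit, 37 were lower and 0 higher at that threshold. At an adjusted p under 0.05 limma-trend called 25 of the 64 lower, in place of 39, and 0 higher. It called 5487 of the 10005 genes tested lower. The median log2 ratio of the 64 genes was -0.34 (quartiles -0.44 and -0.24), that is 79.0% of the control, and the median over all genes was -0.42 (quartiles -0.60 and -0.26), or 74.5%. Relative to the spike-ins all 64 ratios lay below 0, beside 96.7% of the 10005 genes tested. After scaling by total reads 16 of the 64 did so, beside 4734 of all genes. After scaling on the median gene 17 did, beside 5037 of all genes. These scalings raised the median of all genes by 0.44 and 0.42.

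In 62 of the 64 genes both dIWS1 columns lay under the control, as they did in 92.7% of all genes; the exceptions were SNRPB2 and SNRNP48, whose column 2 ratios were 0.00 and 0.04. Column 1 was lower than column 2 in 61 of the 64, and in 7933 of the 10005 genes tested. Median ratios of the set were -0.43 in column 1 and -0.26 in column 2, and those of all genes were -0.47 and -0.37. Since the columns are offset from each other, the spread that the test uses includes this offset, which had a median of -0.12 among genes with a mean above 100 normalized reads.

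**Figure D1:**
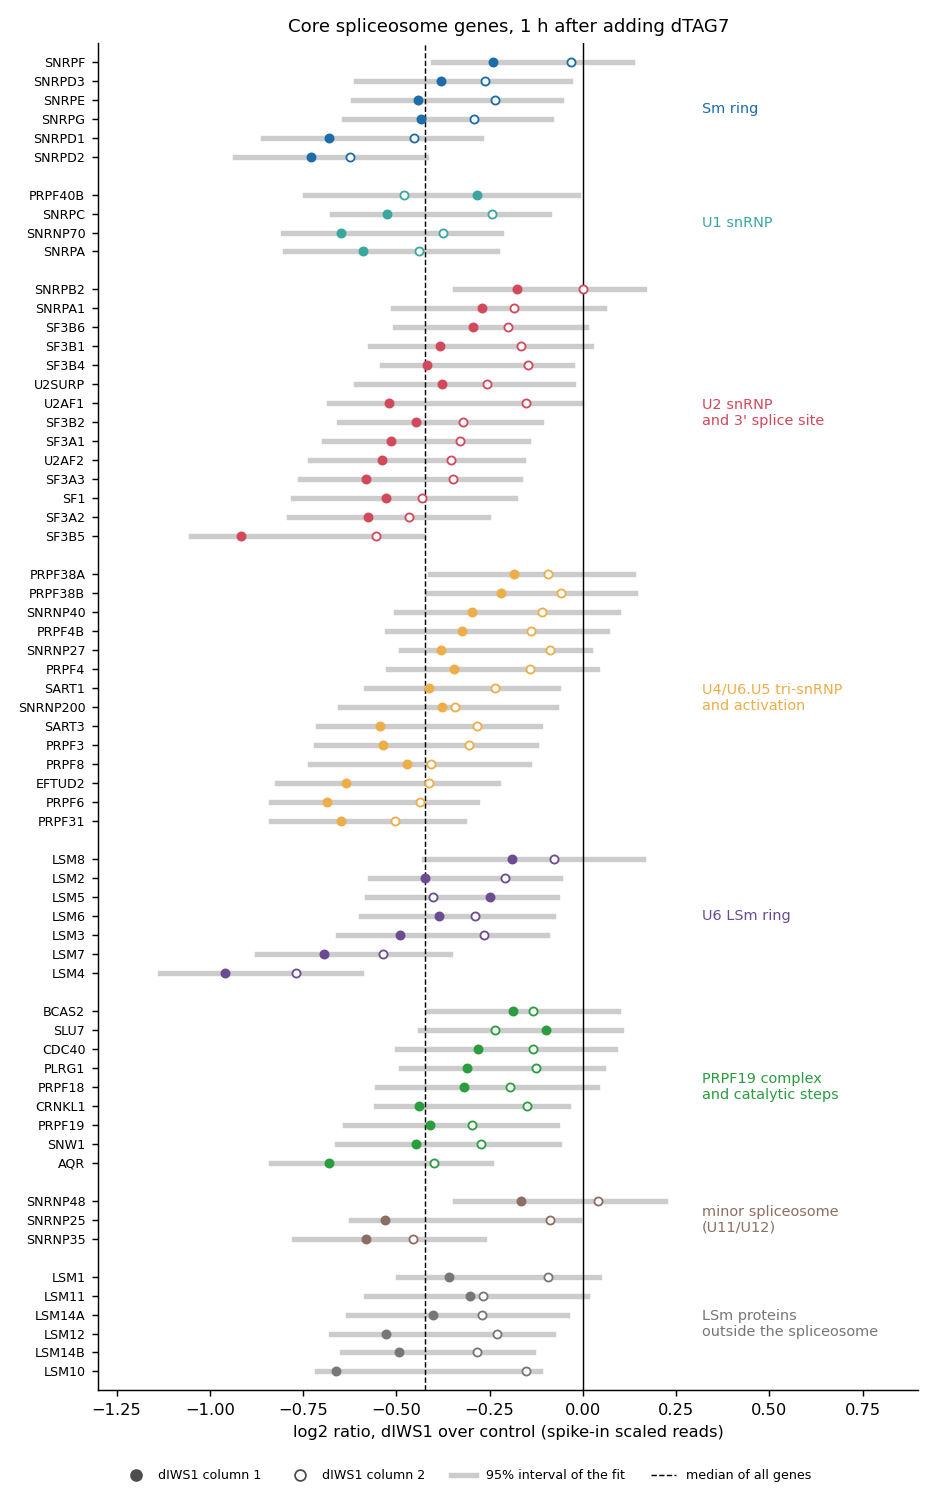
Each row is a core spliceosome gene, grouped by role, and the horizontal axis is the log2 ratio of dIWS1 over control after spike-in scaling. Filled points are dIWS1 column 1, open points are column 2, grey bars are the 95% interval of the limma voom fit, and the dashed line is the median of all genes at -0.42. LSM4 lies farthest to the left at -0.86 and SNRNP48 farthest to the right at -0.06. With scaling by total reads 16 of the 64 ratios are below 0, beside 4734 of the 10005 genes tested.

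Because most genes in the table fell, each gene was also tested against the median gene. On this scale LSM4 was below the median gene (difference -0.44, adjusted p 0.024), beside 4.86% of all genes, and none of the 64 was above it, beside 2.94%. The LSM4 call was lost by limma-trend, at an adjusted p under 0.01 and with a minimum difference of 0.5. When the libraries were scaled on the median gene before the fit, a choice made after seeing the data, 1 was below, LSM4 again, beside 11.7% of all genes. With the same scaling 9 were above, beside 11.8%. Among them were SNRPF, SNRPB2, SNRNP40, PRPF38A, PRPF38B, LSM8, CDC40 and SNRNP48. Of the 64 genes, 47 (73.4%) lay over the median gene.

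**Figure D2:**
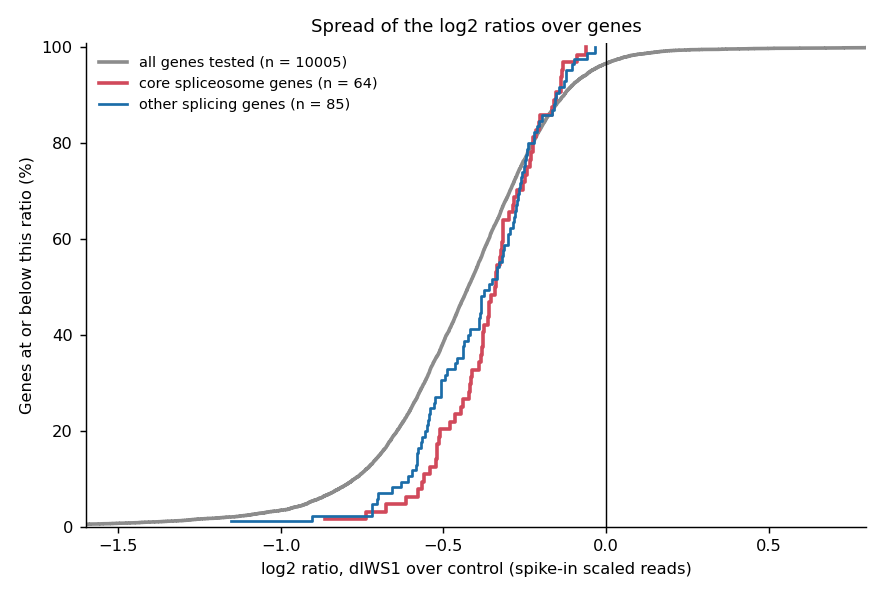
The curves give the percentage of genes (vertical axis) at or below each log2 ratio of dIWS1 over control (horizontal axis) for all 10005 genes tested, the 64 core spliceosome genes and 85 other splicing genes. The core spliceosome genes run from -0.86 to -0.06 around a median of -0.34, while the curve of all genes, with a median of -0.42, has longer tails on both sides; scaling by total reads moves the median of the core genes to 0.10.

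Promoter sequences are given for both ends of this range: LSM4 and SNRPD2, which had low ratios, and SNRPB2 and SNRNP48, which had the highest. They are the 250 bases before the annotated start, from RefSeq on GRCh38.p14, read along the gene's strand. LSM4 lies at chr19:18323077-18323326 on the minus strand, SNRPD2 at chr19:45692317-45692566 on the minus strand, SNRPB2 at chr20:16729776-16730025 on the plus strand and SNRNP48 at chr6:7589948-7590197 on the plus strand. Capitals mark matches, on either strand, to 6 motifs: the ETS core CGGAAG, the GC box GGGCGG, the nuclear factor Y motif CCAAT, the TATA box TATAAA, the YY1 core ATGGCG and the E-box CACGTG.
LSM4: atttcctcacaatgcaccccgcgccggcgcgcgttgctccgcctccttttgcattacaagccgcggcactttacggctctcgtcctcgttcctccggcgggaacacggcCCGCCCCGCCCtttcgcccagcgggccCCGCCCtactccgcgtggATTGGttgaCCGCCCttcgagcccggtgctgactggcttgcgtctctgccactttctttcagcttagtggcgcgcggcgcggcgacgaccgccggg
SNRPD2: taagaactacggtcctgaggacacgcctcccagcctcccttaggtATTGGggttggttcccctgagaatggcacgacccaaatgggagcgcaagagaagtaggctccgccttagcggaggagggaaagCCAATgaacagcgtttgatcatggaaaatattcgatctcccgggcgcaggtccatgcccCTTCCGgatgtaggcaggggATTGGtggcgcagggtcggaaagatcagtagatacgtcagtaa
SNRPB2: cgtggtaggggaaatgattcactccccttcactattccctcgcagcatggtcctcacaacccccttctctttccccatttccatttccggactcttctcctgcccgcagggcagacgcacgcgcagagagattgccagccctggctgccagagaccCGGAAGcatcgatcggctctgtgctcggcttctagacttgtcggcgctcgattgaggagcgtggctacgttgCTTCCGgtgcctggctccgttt
SNRNP48: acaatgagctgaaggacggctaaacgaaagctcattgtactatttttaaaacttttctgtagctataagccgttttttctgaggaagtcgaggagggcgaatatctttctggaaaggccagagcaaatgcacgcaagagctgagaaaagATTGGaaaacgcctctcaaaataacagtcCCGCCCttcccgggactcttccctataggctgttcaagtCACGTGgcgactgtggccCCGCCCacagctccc

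The LSM4 window held 4 GC boxes, of which a pair shares a base, and 1 CCAAT box, and 68.4% of its bases were G or C. SNRPD2 had 3 CCAAT boxes and 1 ETS core at 55.6% GC, and SNRPB2 had 2 ETS cores at 59.6% GC. SNRNP48 had 2 GC boxes, 1 CCAAT box and 1 E-box at 48.8% GC. Promoters were matched for 56 of the 64 genes. Those not matched included PRPF3, LSM6, LSM1, SART3, SNRNP35, SNRPD1 and LSM14A. An ETS core was in 30 of the 56 windows (53.6%), in 30.6% of the 8016 windows matched to genes tested, and in 16.8% of all 27305 genes with an entry. The YY1 core was in 17.9%, 10.1% and 6.50% in the same order. The GC box (64.3%, 68.8% and 42.3%), CCAAT (41.1%, 36.1% and 33.0%), the TATA box (5.36%, 5.11% and 11.1%) and the E-box (7.14%, 9.28% and 6.49%) were at shares closer to those of the genes tested. A match gives the letters only.

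The Sm ring, which binds U1, U2, U4 and U5 snRNAs, had 6 measured genes, and 5 of them fell, with a group median of -0.35 relative to the spike-ins (0.09 with scaling by total reads). SNRPD2 had 788 control reads against 468 and 465 in the dIWS1 columns, for a log2 ratio of -0.68 (SE 0.13, adjusted p 2.81e-06). SNRPF had 1110, 924 and 989 reads, and its ratio of -0.14 (SE 0.14) had an adjusted p of 0.36. SNRPD2 was thus well under the control in both dIWS1 columns, whereas SNRPF, its partner in the same ring, lay only just under it in column 2 (-0.03). Between these ends were SNRPD1 at -0.57, SNRPG at -0.36, SNRPE at -0.34 and SNRPD3 at -0.32, and all 4 fell.

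The U1 snRNP genes make the complex that finds the 5′ splice site, and 3 of the 5 measured fell (median -0.38, and 0.06 with scaling by total reads). These were the genes for the 3 proteins particular to U1. SNRPA, which binds a stem-loop of U1 RNA, had 2175 control reads against 1421 and 1460 in the dIWS1 columns and a ratio of -0.51 (SE 0.15). SNRNP70, the U1-70K protein, had 2842, 1782 and 1996 reads and the same ratio, -0.51 (SE 0.15). SNRPC, which steadies the contact with the 5′ splice site, had 2689, 1840 and 2069 reads and a ratio of -0.38 (SE 0.15). In all 3 both dIWS1 columns were clearly below the control. PRPF40B, a splicing factor linked to U1, had the fewest reads of the set, 135, 109 and 88, and its ratio of -0.38 (SE 0.19) had an adjusted p of 0.063.

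Of the 14 genes of the U2 snRNP and the 3′ splice site, 8 fell, with a median of -0.36 (0.08 with scaling by total reads). SF1, which binds the branch point before U2 does, had 5156 control reads against 3520 and 3483 in the dIWS1 columns and a ratio of -0.48 (SE 0.15). U2AF2, which binds the polypyrimidine tract, had 2163, 1464 and 1541 reads and a ratio of -0.45 (SE 0.15). Both columns lay under the control for each, at -0.53 and -0.43 for SF1 and at -0.54 and -0.35 for U2AF2. U2AF1, which reads the AG at the 3′ splice site, had 165, 113 and 135 reads and a ratio of -0.34 (SE 0.17, adjusted p 0.069).

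The U2AF1 value is uncertain. Of its 31-base stretches, 96.4% occur elsewhere in the genome, and 96.0% occur in its copy U2AF1L5, whereas the other core spliceosome genes had at most 35.8% and a median of 13.7%. The authors kept unique alignments, so reads that lie wholly in a shared stretch are counted for neither gene. U2AF1L5 had 294, 228 and 252 reads. Summed over the pair there were 459, 341 and 387 reads, with log2 ratios of -0.41 in column 1 and -0.11 in column 2.

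SF3A and SF3B are the protein complexes that hold the U2 snRNP on the branch point. All 3 SF3A genes fell (median -0.46, and -0.02 with scaling by total reads). Of the 5 SF3B genes 3 fell (median -0.28, and 0.16 with scaling by total reads), beside 65% of all genes tested. A difference between the complexes was not tested. SF3A2 was at -0.52, SF3A3 at -0.46 and SF3A1 at -0.42. Among SF3B genes SF3B5, a small subunit encoded by a single exon, had 242 control reads against 126 and 150 in the dIWS1 columns and a ratio of -0.74 (SE 0.16, adjusted p 2.29e-05). SF3B1, the large subunit that clamps the branch point helix, had 5987, 4515 and 4859 reads and a ratio of -0.28 (SE 0.15, adjusted p 0.095). SF3B5 was at 59.9% of the control, the second lowest of the set, and its columns stood 0.36 apart on the log2 scale. SF3B2 (-0.38) and SF3B4 (-0.28, SE 0.13) also fell, and SF3B6, the subunit next to the branch point adenosine, was at -0.25 and did not pass.

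The pair of proteins bound to a stem-loop of U2 RNA did not pass. SNRPB2, the U2-B″ protein, had 530 control reads against 461 and 483 in the dIWS1 columns, and its ratio of -0.09 (SE 0.13) had a 95% interval from -0.34 to 0.17. SNRPA1, its partner U2-A′, was at -0.23 (SE 0.14). U2SURP, a U2-associated protein with 9191 control reads, was at -0.32 with an adjusted p of 0.051, next to the threshold.

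Among the 14 genes of the tri-snRNP and of activation, 8 fell, with a median of -0.34 (0.10 with scaling by total reads). PRPF8, the scaffold of the catalytic centre, had 3028 control reads against 2147 and 2081 in the dIWS1 columns and a ratio of -0.44 (SE 0.15). EFTUD2, the U5 GTPase, had 5812, 3684 and 3974 reads and a ratio of -0.52 (SE 0.15). SNRNP200, the helicase that unwinds U4 from U6, had 2433, 1841 and 1747 reads and a ratio of -0.36 (SE 0.15). These 3 genes of the U5 core fell, and both of their dIWS1 columns were at or below -0.34. PRPF6, which bridges U5 and U4/U6, had 1624, 993 and 1092 reads and a ratio of -0.56 (SE 0.14).

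PRPF31, which holds U4/U6 together, had 512 control reads against 321 and 329 in the dIWS1 columns and the lowest ratio of the group, -0.58 (SE 0.13, adjusted p 7.37e-05). Its partners on U4/U6 were PRPF3, with 3273, 2222 and 2411 reads and a ratio of -0.42 (SE 0.15), and PRPF4, with 1679, 1300 and 1386 reads and a ratio of -0.24 (SE 0.14). PRPF3 fell and PRPF4 did not pass (adjusted p 0.12). SART3, which recycles U4/U6, was at -0.41 and SART1, which keeps the tri-snRNP assembled, at -0.32, and both fell. PRPF38A, which joins at activation, had 1320, 1143 and 1127 reads and a ratio of -0.14 (SE 0.14). PRPF38B (-0.14) and the kinase PRPF4B (-0.23) did not pass either, nor did SNRNP40 (-0.20) and SNRNP27 (-0.23).

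The U6 LSm ring, which binds the 3′ end of U6 snRNA, had 7 genes, of which 6 fell (median -0.34, and 0.10 with scaling by total reads). It also held the widest range of any group. LSM4 had 1375 control reads against 696 and 734 in the dIWS1 columns and a ratio of -0.86 (SE 0.14, adjusted p 1.12e-08), which is 55.0% of the control. LSM8, the subunit that sets the nuclear ring apart from the cytoplasmic one, had 2801, 2415 and 2419 reads and a ratio of -0.13 (SE 0.15, adjusted p 0.41). Both dIWS1 columns of LSM4 (-0.96 and -0.77) were lower than either of LSM8 (-0.19 and -0.08). LSM7 had 538, 327 and 338 reads and a ratio of -0.62 (SE 0.13). LSM3, LSM6, LSM5 and LSM2 had ratios from -0.38 to -0.32.

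LSM4 was the one core gene still called lower under both other scalings: its ratio was -0.42 (adjusted p 0.000141) with scaling by total reads. LSM7 was at -0.17 (adjusted p 0.24) and SNRPD2 at -0.23 (adjusted p 0.057) on that scale. LSM4 is on chromosome 19, at chr19:18306236-18323076 on the minus strand, and has 5 exons.

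The PRPF19 complex and the catalytic step factors had the smallest changes of the larger groups: 4 of 9 fell, and the median was -0.26 (0.18 with scaling by total reads). AQR, a helicase of the intron-binding complex, had 7263 control reads against 4458 and 5015 in the dIWS1 columns and a ratio of -0.54 (SE 0.15). PRPF19, the ubiquitin ligase after which the complex is named, had 2066, 1530 and 1531 reads and a ratio of -0.35 (SE 0.15). SNW1, which lines the catalytic centre, had 4156, 2999 and 3130 reads and a ratio of -0.36 (SE 0.15). CRNKL1 (-0.30, SE 0.13) was the fourth that fell. The genes of the second catalytic step did not pass: SLU7, which helps to choose the 3′ splice site, had 1218, 1118 and 943 reads and a ratio of -0.17 (SE 0.14). CDC40 had 2632, 2132 and 2187 reads and a ratio of -0.21 (SE 0.15), and PRPF18 was at -0.26. BCAS2, a core subunit of the PRPF19 complex, had 704, 608 and 584 reads and a ratio of -0.16 (SE 0.13), and PLRG1 was at -0.22.

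The minor spliceosome removes a rare class of introns through the U11/U12 di-snRNP, and 1 of its 3 measured genes fell (median -0.32, and 0.13 with scaling by total reads). SNRNP35 had 737 control reads against 484 and 489 in the dIWS1 columns and a ratio of -0.52 (SE 0.13). SNRNP48 had 1721, 1508 and 1613 reads and the highest ratio of all 64, -0.06 (SE 0.14), with a 95% interval from -0.34 to 0.22. SNRNP25 had 222, 151 and 190 reads and a ratio of -0.32 (SE 0.16, adjusted p 0.064). In SNRNP25 the columns stood 0.44 apart.

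LSm proteins that work outside the spliceosome share the fold but not the role, and 4 of 6 fell (median -0.36, and 0.08 with scaling by total reads). LSM10, a subunit of the U7 snRNP that processes histone RNA, had 248 control reads against 154 and 203 in the dIWS1 columns and a ratio of -0.41 (SE 0.15). LSM11, its partner, had 246, 196 and 186 reads and a ratio of -0.29 (SE 0.15, adjusted p 0.083). LSM1, of the cytoplasmic ring that promotes mRNA decay, had 1244, 954 and 1062 reads and a ratio of -0.22 (SE 0.14, adjusted p 0.13). LSM12, LSM14A and LSM14B fell, with ratios from -0.39 to -0.34. Without these 6 genes, 35 of 58 fell and the median was still -0.34.

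Levels were compared as normalized reads per kb of the annotated gene span, exons and introns together, since labelled RNA is mostly unspliced. In the control 58 of the 64 genes lay over the median of the table, 41.2 reads per kb. SF1 (366 reads per kb) and SF3B5 (347) had the highest levels, and PRPF40B (6.07) and U2AF1 (11.2) the lowest, the latter with the shared stretches described above. The 6 Sm genes lay within a 1.49-fold range, from 117 for SNRPD3 to 174 for SNRPE, and the U6 LSm genes ran from 53.8 for LSM5 to 140 for LSM8. There is 1 control sample, so no spread between controls can be set beside these ranges.

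**Figure D3:**
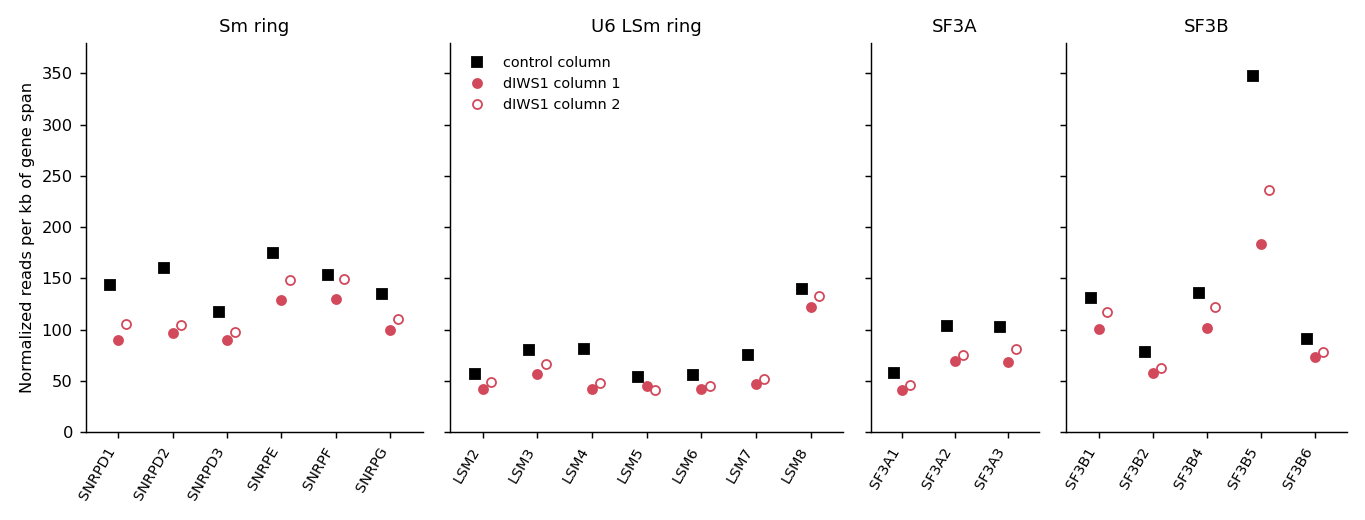
Normalized reads per kb of gene span (vertical axis, from 0) for the control (squares) and dIWS1 columns 1 (filled circles) and 2 (open circles) for the genes of the Sm ring, the U6 LSm ring, SF3A and SF3B. The Sm genes are within 117 to 174 reads per kb in the control, LSM8 stands at 140 above the rest of its ring, and SF3B5 stands at 347 above the other SF3B genes; all dIWS1 points are under their control, an order that for most genes flips with scaling by total reads.

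**Figure D4:**
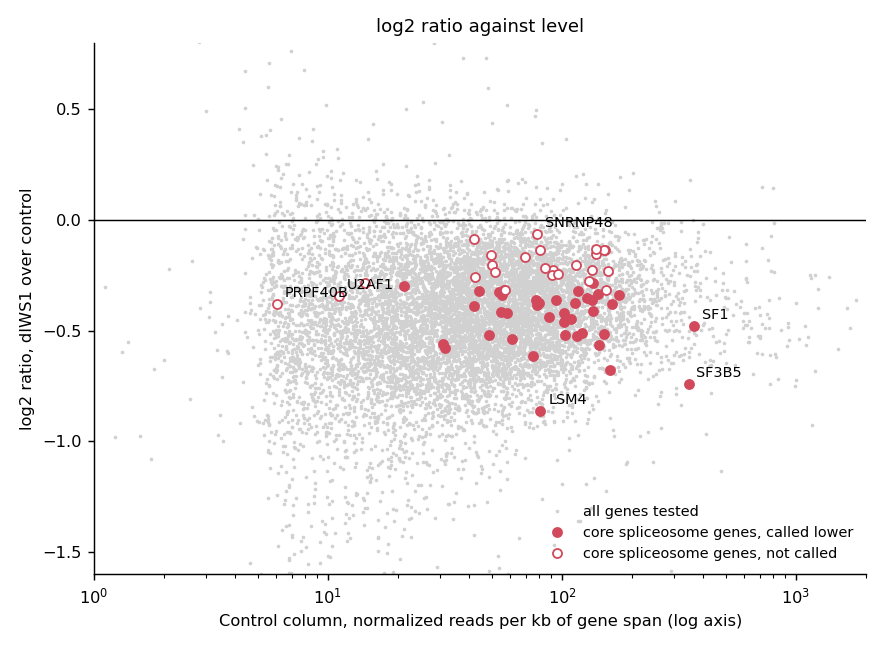
The horizontal axis is the control level in normalized reads per kb of gene span on a log axis and the vertical axis is the log2 ratio of dIWS1 over control, shown from -1.6 to 0.8; grey points are all genes tested, filled circles are core spliceosome genes that fell and open circles those that were not called. Core genes that fell run from 21.1 (CRNKL1) to 366 (SF1) reads per kb, and those not called from 6.07 (PRPF40B) to 157 (PRPF4B). With scaling by total reads 1 core gene is called lower in place of 39. The share of all genes called with that scaling was not counted.

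The ratio of a core spliceosome gene went with its base composition. The GC content of the gene span and the log2 ratio had a Pearson r of -0.71 over the 64 genes (Spearman rho -0.72), and -0.70 without LSM4. Over 9026 genes with at least 100 control reads r was -0.32. In the single columns r was -0.69 and -0.65. These are descriptions across genes that share the same 3 libraries, looked at after the values were seen. Length (r 0.15), level (-0.10) and exon number (-0.03) showed little relation in the 64 genes.

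With all genes sorted by GC content into 4 bins of equal size, 4 of 16 core genes in the lowest bin fell, 10 of 21 in the second, 15 of 16 in the third and 10 of 11 in the highest. Over all genes the shares that fell in these bins were 49.7%, 57.7%, 73.0% and 79.5%. Median ratios of the core genes were -0.21, -0.34, -0.40 and -0.52, and those of all genes -0.31, -0.36, -0.44 and -0.55. AQR, at 37.5% GC, had the lowest ratio of the 16 core genes in the lowest bin, -0.54. The 9 genes above the median gene after scaling on it had 35.2% to 42.0% GC. Whether library preparation treated GC-rich RNA differently in the columns was not tested.

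Position went with the same measure. Of the 64 genes, 9 are on chromosome 19, a GC-rich chromosome: LSM4, LSM7, LSM14A, SNRPD2, SNRPA, SNRNP70, SF3A2, U2AF2 and PRPF31. All 9 fell relative to the spike-ins, with a median of -0.52. With scaling by total reads 8 of them were still below 0, beside 441 of all 709 genes on this chromosome. The other 55 had 30 that fell (54.5%) and a median of -0.32. Over all genes on chromosome 19, 75.7% fell with a median of -0.50, and over all genes on other chromosomes 64.2% fell with a median of -0.42. The 9 genes had a median GC content of 55.7%, against 42.4% for the other 55. LSM14A was both the GC-poorest of the 9 (39.9%) and the one with the highest ratio (-0.34).

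**Figure D5:**
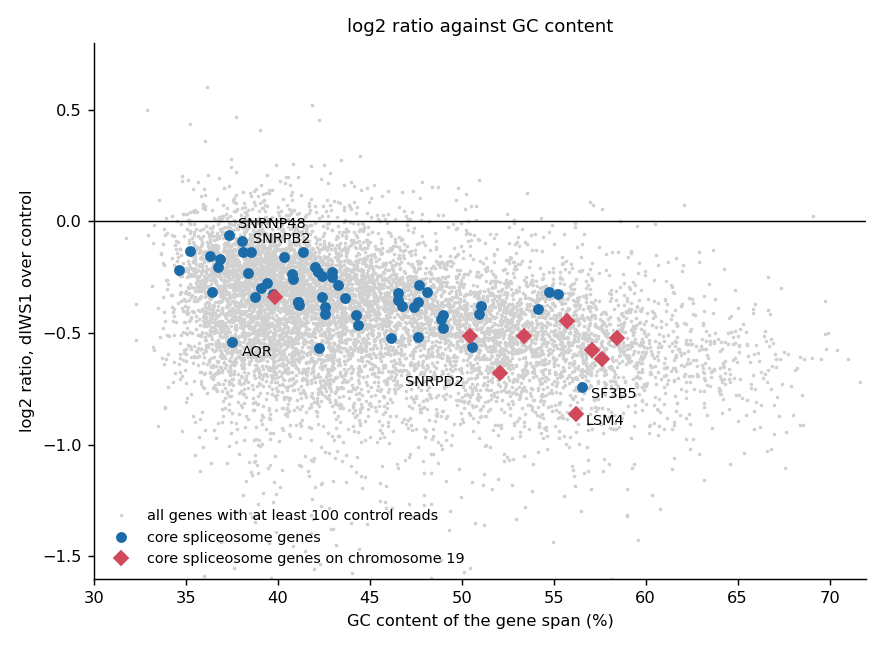
GC content of the gene span in percent (horizontal axis) against the log2 ratio of dIWS1 over control (vertical axis, shown from -1.6 to 0.8) for all genes with at least 100 control reads (grey), core spliceosome genes (circles) and those on chromosome 19 (diamonds). The core genes slope from about SNRNP48 at 37.3% GC and -0.06 to LSM4 at 56.2% GC and -0.86. All 64 are below 0 with the spike-ins, beside 96.7% of the 10005 genes tested. With scaling by total reads 16 are below 0, beside 4734 of all genes.

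Beside the core set, 97 further splicing symbols were listed, and 85 were in the table: other spliceosome components, further minor spliceosome genes, exon junction and cap-binding genes, and snRNP assembly genes. Of these 85, 51 fell (60%), beside 65% of all genes tested. By limma voom 0 were called higher, beside 0.13% of all genes. At an unadjusted p under 0.05 there were also 0 higher, beside 18 of the 10005 genes tested. The median of the 85 was -0.36 relative to the spike-ins and 0.08 with scaling by total reads. By class, 35 of 53 other components fell, 4 of 6 minor spliceosome genes, 2 of 7 exon junction and cap-binding genes and 10 of 19 assembly genes. The lowest was ARMC7, with 467 control reads against 208 and 189 in the dIWS1 columns and a ratio of -1.15 (SE 0.14). MAGOHB and MAGOH, which encode near-identical exon junction proteins, were at opposite ends, at -0.90 (SE 0.13) and -0.10 (SE 0.13), though reads that both copies share are counted for neither. CCDC94 was at -0.72, and WBP4 and TXNL4B were at -0.06 and -0.03.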

How the data were processed

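TT-seq reads were aligned by the authors with STAR 2.6.0 to GRCh38 with spike-in sequences added, unique alignments were kept, and read pairs were counted with strand per RefSeq gene, leaving out overlapping genes; the methods state a threshold of a median RPK over 10. By the gene spans used here the deposited rows do not all meet it: 11 genes have a mean of 0, and PRPF40B had 6.07 control reads per kb. The deposited table has 1 row per gene. Its mean is a signal, reads divided by spike-in size factors (DESeq2) and averaged over the library columns by the authors. Its log2 fold change, standard error, statistic, p-value and adjusted p-value compare the groups; none of these is reported here. The deposited log2 fold change was used only while reads were recovered, to tell the groups of the columns and to narrow the search for genes of high mean.

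Each mean was split into whole multiples of 3 steps found among the lowest means. Of 10136 genes with a mean above 0, 10134 (99.98%) had 1 solution and 2 had several, and of 1000 means shifted by a small amount 1 could be split. The control column enters with an even weight, so it counts as 1 sample. The recovery and the fit were tested on simulated data.

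limma 3.58.1 (R 4.3.3) fitted voom to the reads of genes with at least 10 over the columns, with library sizes from the spike-ins, and adjusted p-values over all genes by Benjamini-Hochberg. With 1 residual degree of freedom per gene, the spread was a common trend over genes, drawn from the 2 dIWS1 columns. Ratios of single columns used a pseudocount of 0.5. The median gene was taken as fixed. Column reads come from 1 library each, so intervals do not cover differences between controls. The labels number the libraries as replicates 1 and 2, and the methods of the study call the replicates biological.

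The genes, groups and lists were chosen with earlier results of these data known. Values in every column were given for the 5 lowest and 5 highest ratios, the lowest and highest of each group, and a fixed list of splicing factors; of other splicing genes, the 3 lowest and 3 highest were named. The values of 1 core gene are not reported here, and it has no row in the plot by gene; counts and medians include it. GC content, span and promoters came from RefSeq on GRCh38.p14, exons from GENCODE. Python 3.11.15, numpy 2.4.6 and numba 0.67.0 were used. Other scalings, thresholds, filters and limma-trend were tried.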

Additional observations from a re-analysis of the deposited data

How the results depend on the processing

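The direction depended on the scaling. Scaling by total reads or on the median gene puts the median of all genes near 0. These scalings therefore cannot show a fall that most genes share, and place genes only relative to each other. With the spike-ins 39 core spliceosome genes were lower and 0 higher, and the median was -0.34. With scaling by total reads 1 was lower and 18 higher, and the median was 0.10, beside 0.017 over all genes. The share of all genes called with that scaling was not counted, so these calls have no background. With scaling on the median gene 1 was lower, beside 11.7% of all genes, and 9 higher, beside 11.8%. The median was then 0.084, beside -0.0019 over all genes (an alternative for the median that was added after seeing the data). Other splicing genes went from 51 lower and 0 higher to 6 and 19 with total reads, and to 4 and 9 on the median gene. All genes stood at 65% lower and 0.13% higher with the spike-ins, and at 11.7% and 11.8% on the median gene. The number of core genes called lower was 19 at an adjusted p under 0.01 and 13 with a log2 ratio of at least 0.5 (26 for the other splicing genes). With limma-trend it was 25 at either pseudocount, beside 5487 of the 10005 genes tested at a pseudocount of 0.5. Shares of all genes were not counted at other thresholds, with a minimum ratio or difference, or with the control entered 2 times. The lower quartile of the log2 ratios was -0.60 over all genes and -0.44 over the core genes. Below the median gene there were 0 at an adjusted p under 0.01, with at least 0.5 from it, and by limma-trend, and 2 with the control entered 2 times. Above it there were 1 at an adjusted p under 0.1, 4 with the control entered 2 times and, added after seeing the data, 9 with libraries scaled on the median gene. With 1 dIWS1 column at a time the median ran from -0.43 to -0.26; a single column leaves no residual degrees of freedom, so no calls were made. Without U2AF1, also added later, 39 genes were lower. No paired analysis was possible because the recovered columns carry no replicate numbers and there is 1 control column. Depth limits PRPF40B, U2AF1, SNRNP25, SF3B5, LSM10 and LSM11, which had under 250 control reads.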
